A study of Mus musculus with 4 samples.

Results

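The genes described here encode parts of the cytotoxic granule other than the granzymes, together with Fas ligand and 3 serpins of the family that holds the granzyme B inhibitor: Prf1, Nkg7, Fasl, Srgn, Lamp1, Ctsw, Cst7, Serpinb9, Serpinb6b and Serpinb9b. They were chosen by name, are 10 of the 28692 genes in the count matrices, and each had at least 1 UMI (unique molecular identifier, 1 captured RNA molecule) in all 4 libraries. C57BL/6 mice bearing B16-F10 melanoma, a transplantable tumour line, received Pmel-1 CD8 T cells on day 3. The T cell receptor of Pmel-1 cells is a transgene that recognises gp100 of melanocytes, and the cells had been given a vector for IRF4-GFP, or for GFP as control. On day 14 the transferred cells (labelled CD8+ T cells) and the endogenous tumour-infiltrating leukocytes (labelled CD45+ cells) of each arm were sorted and profiled by droplet 3′ RNA sequencing. This gave 4 groups: transferred IRF4, transferred control, endogenous IRF4 and endogenous control. The endogenous cells are the host's own and were not given a vector. Each group is 1 library, and the labels do not say how many mice were pooled in it.

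Killer lymphocytes store perforin and granzymes in lysosome-related granules, and release them against a target cell. Perforin opens a path through the target membrane, granzymes then cut proteins inside the target, and serglycin, the proteoglycan encoded by Srgn, packs the granule contents. Serpins of the B9 and B6 families are intracellular protease inhibitors, and mouse Serpinb9 is known to inhibit granzyme B and to protect killer cells and dendritic cells from it.

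The libraries held 715, 3640, 6981 and 6375 barcodes in the order transferred IRF4, transferred control, endogenous IRF4 and endogenous control, with 16664323 to 94686409 UMIs. Filters left 15132 of 17711 barcodes as cells. Cells were assigned to types by marker UMIs in each cell, and 11196 passed exactly 1 gate. Gated CD8 T cells numbered 469, 1943, 1853 and 625, at median depths of 16044, 19846, 11931 and 8978 UMIs. Their Cd8a level was 809 CPM (UMIs summed over the cells and scaled to a total of 1000000) in the transferred IRF4 library, and Cd79a was at 0 in all 4. The 8 myeloid markers summed to 39.1, 120.9, 75.1 and 148.9 CPM in the gated CD8 cells of the 4 libraries, and the red cell gene Hbb-bs to 0.0787, 53.8, 0.298 and 593.7 CPM. Both stood higher in the control arm. The neutrophil gene S100a8 was at 23.1, 0.470, 5.78 and 12.4 CPM, and the NK gene Ncr1 at 0.315, 0, 8.19 and 0.955 CPM, both higher with IRF4 in transferred cells. Their part in the arm differences given here was not tested. Any 2 libraries shared 0 to 18 barcodes. With 1 library per group no difference could be tested, so ratios are called past a limit of 1.5 in genes at 10 CPM or more. All intervals are 95% and cover counting error only.

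All 3 serpin genes lie on chromosome 13, plus strand (GRCm38): Serpinb6b at 32965209 to 32979067, Serpinb9 at 33003250 to 33017957 and Serpinb9b at 33027416 to 33041884. The 250 bases before the RefSeq start of each are printed because Serpinb9 and Serpinb6b had like patterns over cell types and Serpinb9b another, given further on. The RefSeq starts of Serpinb9 and Serpinb6b lie inside the spans annotated by GENCODE. So do the whole Serpinb9 window and the last bases of the Serpinb6b window. Sequences are from RefSeq on GRCm38.p6, at chr13:33004291-33004540, chr13:33027164-33027413 and chr13:32965011-32965260, and capitals mark a match to a motif known to bind IRF proteins, either the interferon response element (GAAA, any 2 bases, GAAA) or the ETS-IRF composite (GGAA, any 2 bases, GAAA).
Serpinb9: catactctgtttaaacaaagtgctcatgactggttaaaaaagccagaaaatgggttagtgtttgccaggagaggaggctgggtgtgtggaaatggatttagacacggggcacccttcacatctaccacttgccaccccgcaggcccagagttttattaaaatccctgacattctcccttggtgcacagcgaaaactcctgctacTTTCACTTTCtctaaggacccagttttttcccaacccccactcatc
Serpinb9b: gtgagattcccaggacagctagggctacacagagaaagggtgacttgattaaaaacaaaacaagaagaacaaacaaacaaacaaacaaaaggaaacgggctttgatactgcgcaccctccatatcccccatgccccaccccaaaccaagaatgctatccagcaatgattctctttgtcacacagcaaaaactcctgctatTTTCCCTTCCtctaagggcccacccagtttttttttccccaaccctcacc
Serpinb6b: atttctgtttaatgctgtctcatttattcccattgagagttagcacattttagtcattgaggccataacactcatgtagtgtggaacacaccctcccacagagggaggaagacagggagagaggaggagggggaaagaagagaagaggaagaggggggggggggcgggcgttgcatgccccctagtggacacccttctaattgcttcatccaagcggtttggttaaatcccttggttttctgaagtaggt
Both strands were searched, and both matches are on the minus strand. Serpinb9 holds an interferon response element at bases -46 to -37 from its start, and Serpinb9b holds an ETS-IRF composite at -50 to -41 and no interferon response element. The search covered 6 motifs, and AP-1 (TGANTCA) and NF-kB (GGGA, any 2 bases, TTCC), held by 6.75% and 1.21% of windows, had no match here. Of 32851 upstream windows of the same length, 2.98% hold the first motif and 2.30% the second, and the patterns do not overlap here. The Serpinb6b window has neither. Among the 9 genes with a window, Lamp1 and the second start of Srgn also hold an interferon response element. The T-box letters GGTGTGA, found in 3.33% of windows, stand at bases -13 to -7 of Nkg7. The RUNX letters TGTGGT, found in 14.05% of windows, occur in Prf1, Nkg7, Cst7, Lamp1 and the second Srgn window. In the last 500 annotated bases of the 10 genes, 0 of the words of 50 bases were shared with another gene.

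Perforin RNA was mainly found in NK cells and CD8 T cells. Prf1, the gene of perforin, stood at 221 and 253 CPM in endogenous NK cells of the IRF4 and control libraries and at 99.5 and 154.7 CPM in endogenous CD8 T cells. It was at 24.5 and 15.1 CPM in regulatory T cells, at 5.48 and 2.50 CPM in CD4 T cells and at 0 in mature dendritic cells of both libraries, where a count of 0 allows up to 3.48 and 2.40 CPM. The lower NK library was above the higher CD8 library. After thinning each cell to 2000 UMIs, 31.2% (28.2 to 34.4) and 35.1% (30.9 to 39.4) of NK cells had a Prf1 UMI, at median depths of 5010 and 5015 UMIs. The thinned share was 7.25% (5.07 to 9.98), 4.94% (4.02 to 6.00), 11.3% (9.92 to 12.9) and 12.8% (10.3 to 15.7) in CD8 T cells. Without thinning the CD8 shares were 35.4%, 30.8%, 43.8% and 38.1%, and the NK shares 55.2% and 58.8%. B cells, which should lack Prf1, had 0 of 110 and 0 of 447 thinned cells with a UMI (limits of 2.73% and 0.671%), at median depths of 3347 and 3628 UMIs. All 4 CD8 shares were above these limits, which come from the endogenous libraries alone. The transferred IRF4 and control libraries had 0 and 12 gated B cells, too few for a limit of their own.

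**Figure D1:**
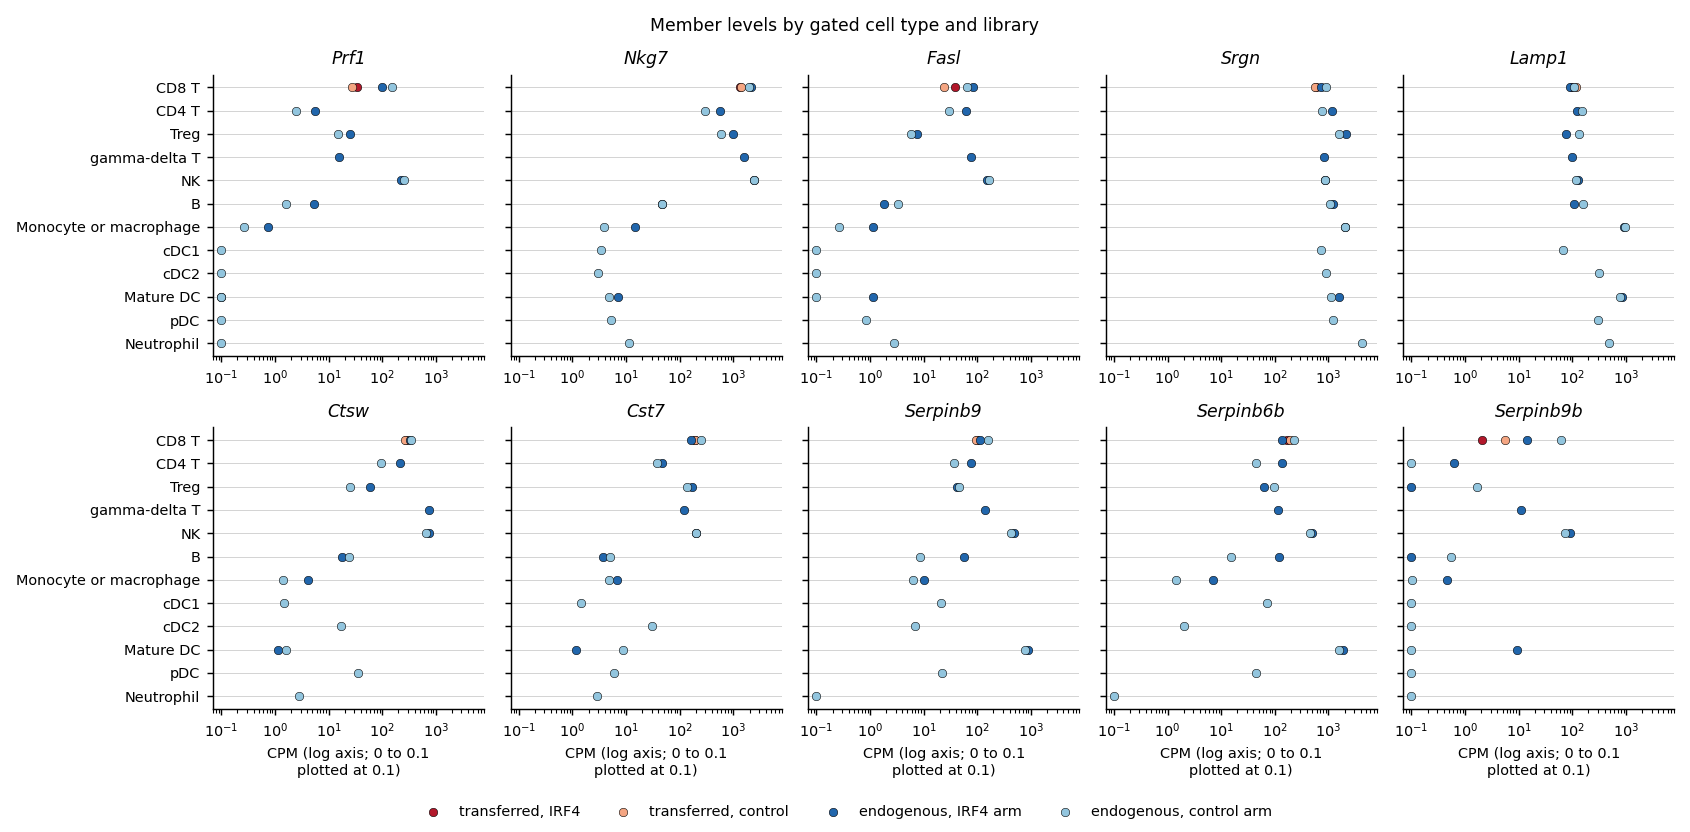
Level of each gene in CPM (log axis, values up to 0.1 drawn at 0.1) by gated cell type; each point is 1 library with at least 50 cells of the type, coloured by group. Serpinb9 and Serpinb6b are highest in mature dendritic cells, at 886 and 760.4 CPM and at 1871 and 1545 CPM, whereas Prf1 and Serpinb9b are highest in NK cells.

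Nkg7, a granule membrane protein of killer cells, was also highest in NK cells, at 2400 and 2451 CPM, before CD8 T cells at 2148 and 1928 CPM. Unlike Prf1, Nkg7 was also high in γδ T cells of the IRF4 library, at 1604 CPM. Regulatory T cells had 980 and 592 CPM of Nkg7, and CD4 T cells 572 and 294 CPM. Nkg7 was at 47.2 and 46.9 CPM in B cells. Fasl, the ligand that triggers the death receptor Fas, stood at 154 and 165 CPM in NK cells, 82.1 and 65.7 CPM in CD8 T cells and 74.8 CPM in γδ T cells. The CD8 and γδ ranges overlapped. Ctsw, cathepsin W of killer cells, was at 742 and 666 CPM in NK cells, 761 (683 to 846) CPM in γδ T cells and 327 and 342 CPM in CD8 T cells. γδ T cells had 7 Prf1 UMIs, or 15.4 CPM (6.19 to 31.7). Cst7, the gene of cystatin F, which restrains the cathepsins that activate granzymes, did not separate the killer types: CD8 T cells had 159.9 and 247 CPM, NK cells 204 and 198 CPM and regulatory T cells 173 and 138 CPM.

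The general granule and lysosome genes were highest outside the killer cells. Srgn was at 4312 CPM (4098 to 4535) in neutrophils of the control library, 2038 and 2054 CPM in monocytes or macrophages, 2132 and 1564 CPM in regulatory T cells, and 729.7 and 896 CPM in CD8 T cells. Lamp1, a lysosomal membrane protein that reaches the surface when granules are released, was at 910.1 and 971 CPM in monocytes or macrophages, 849 and 786 CPM in mature dendritic cells and 90.5 and 106 CPM in CD8 T cells. Both were lower in CD8 T and NK cells than in monocytes or macrophages of the same library. Not all myeloid types were above CD8 T cells: type 1 conventional dendritic cells of the control library had 717 CPM of Srgn and 67.9 CPM of Lamp1. Among types with enough cells in both endogenous libraries, 7 by gates, Srgn had its highest mean in monocytes or macrophages. Among 9 such types by clusters it was highest in regulatory T cells, and the highest type was the same for the other 9 genes. Neutrophils and γδ T cells are not among the 7.

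Serpinb9 and Serpinb6b were highest in mature dendritic cells, at 886 (824 to 951) and 760.4 (713 to 810.3) CPM and at 1871 and 1545 CPM. NK cells followed at 475 and 419.6 CPM of Serpinb9 and 500.2 and 453 CPM of Serpinb6b, and CD8 T cells at 110.4 and 160.1 CPM and at 137 and 224 CPM. Serpinb9b instead was highest in NK cells, at 91.3 (83.4 to 99.8) and 73.3 (63.7 to 84.0) CPM, against 14.6 and 60.6 CPM in CD8 T cells. It stood at 9.27 and 0 CPM (limit 2.40) in mature dendritic cells, and the first value is 8 UMIs of 1 cell. B cells of the IRF4 library had 56.3 CPM of Serpinb9 and 122 CPM of Serpinb6b, and 1 cell held 64.5% and 74.6% of those UMIs. In CD4 T cells, where neither arm had many Prf1 UMIs, Serpinb6b stood at 135 and 44.4 CPM and Serpinb9 at 76.8 and 37.5 CPM in the IRF4 and control arms.

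**Figure D2:**
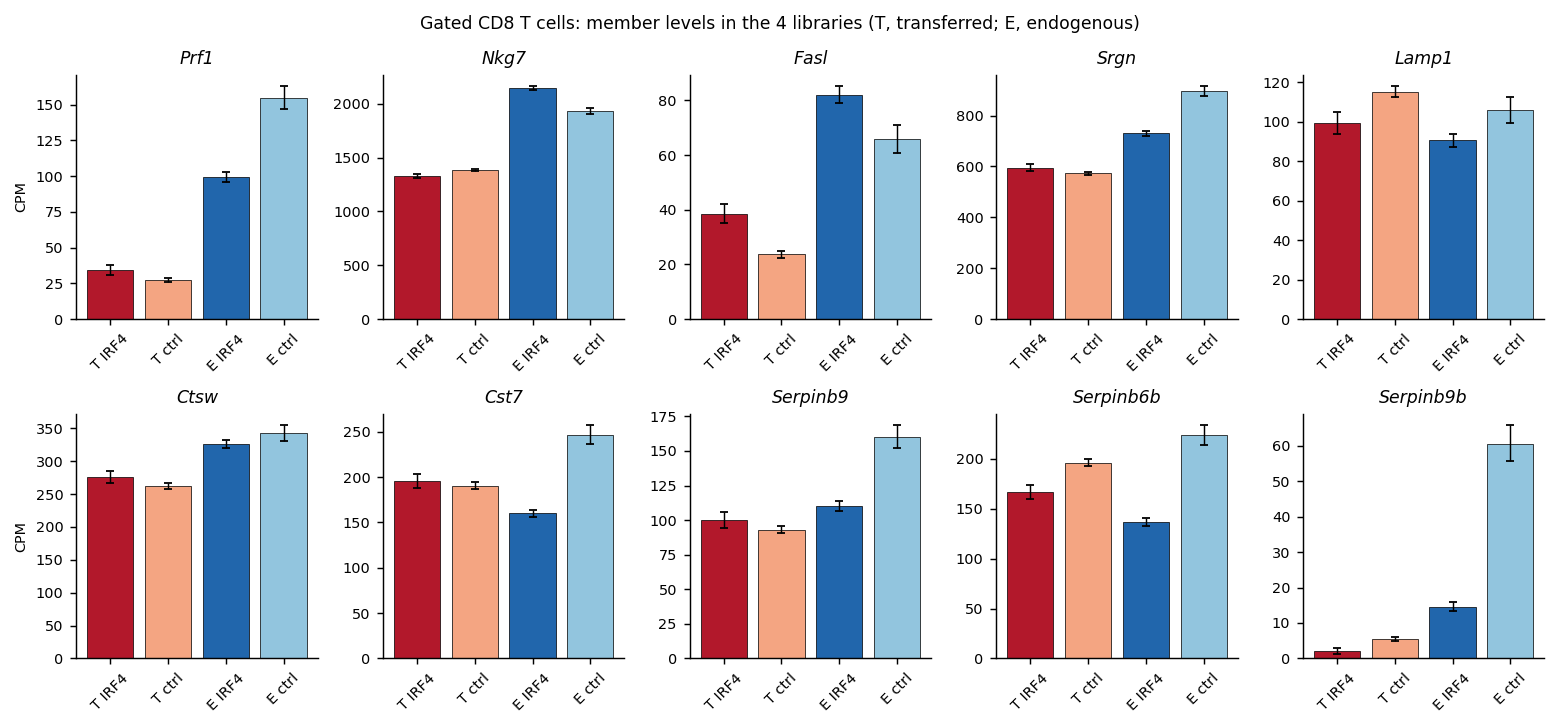
Level of each gene in CPM in the gated CD8 T cells of the 4 libraries (bars; whiskers are 95% Poisson intervals, axes start at 0). Prf1 runs from 27.6 CPM in the transferred control library to 154.7 CPM in the endogenous control library, and Lamp1 only from 90.5 to 115 CPM.

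The first comparison asked how the granule genes of the transferred cells themselves differed with IRF4. Perforin was within the limit: Prf1 stood at 34.2 CPM (31.0 to 37.5) in transferred IRF4 cells and 27.6 CPM (26.3 to 29.0) in transferred control cells, a ratio of 1.24 (1.11 to 1.38). In the same cells Gzmb, the gene of granzyme B, stood at 844 and 353 CPM, a ratio of 2.39 (2.34 to 2.45). The intervals of the 2 ratios do not overlap. Fasl was the only 1 of the 9 genes measured at 10 CPM to pass the limit, at 38.4 (35.1 to 42.0) against 23.7 (22.5 to 25.0) CPM, a ratio of 1.62 (1.46 to 1.80). No gene of the set was lower past the limit. Over all genes measured in this comparison 3.94% were higher and 3.17% lower. The other 7 measured genes had ratios between 0.849 for Serpinb6b and 1.07 for Serpinb9, and the median log2 ratio of the set was 0.06, against 0.01 over all genes. Serpinb9b was under 10 CPM in both libraries, with 26 and 329 UMIs. In cells without a UMI of 5 cell cycle genes the Fasl ratio was 1.39, and none passed the limit. The share of all genes past it was not computed in those cells.

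The second comparison set endogenous CD8 T cells, which carry no vector, of the IRF4 arm against those of the control arm, and other genes passed the limit there. Prf1 stood at 99.5 CPM (96.2 to 103) in the IRF4 arm and 154.7 CPM (147 to 163) in the control arm, a ratio of 0.643 (0.605 to 0.684). Cst7 was at 159.9 and 247 CPM, a ratio of 0.648 (0.617 to 0.681). Serpinb6b was at 137 and 224 CPM, a ratio of 0.613 (0.582 to 0.645), and Serpinb9b at 14.6 and 60.6 CPM, a ratio of 0.240 (0.213 to 0.272). These 4 of 10 genes were lower past the limit and 0 were higher, where 6.31% and 3.34% of all genes were. Serpinb9 was within the limit, just short of it, at a ratio of 0.689 (0.649 to 0.732). Fasl was 1.249 times (1.14 to 1.37) as high in the IRF4 arm and Nkg7 1.11 times (1.10 to 1.13). The median log2 ratio of the set was -0.42, against 0.01 over all genes. NK cells of the same libraries had 0 of 10 genes past the limit in either direction, where 2.36% of all genes were higher and 3.02% lower, with ratios from 0.872 (0.795 to 0.959) for Prf1 to 1.246 (1.06 to 1.47) for Serpinb9b. In endogenous CD8 T cells without cycle UMIs the ratios were 0.932 for Prf1, 0.935 for Cst7, 1.35 for Serpinb6b and 1.55 for Serpinb9, and Serpinb9b alone was lower past the limit, at 0.138. The shares of all genes past the limit were not computed in these cells.

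**Figure D3:**
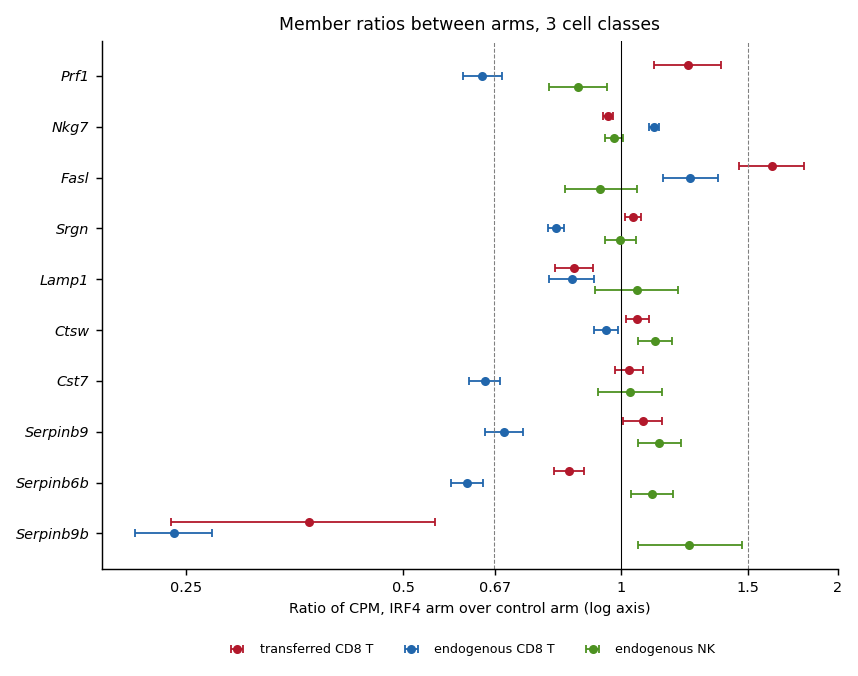
Ratio of CPM in the IRF4 arm over the control arm (log axis, whiskers are 95% counting intervals, dashed lines the limits of 1.5 in either direction) for transferred CD8 T, endogenous CD8 T and endogenous NK cells. The NK ratios all lie between 0.872 and 1.246, and Serpinb9b in endogenous CD8 T cells is the lowest at 0.240.

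Few cells held most Serpinb9b RNA. Of the 571 Serpinb9b UMIs in endogenous control CD8 T cells, 5 cells held 50% or more, and of the 489 in the IRF4 arm 2 cells did. Cells with at least 3 Serpinb9b UMIs, a limit chosen after the values were seen, were 23 of 625 (3.68%, 2.35 to 5.47) in the control arm and 18 of 1853 (0.971%, 0.577 to 1.53) in the IRF4 arm. They were 18 of 1943 (0.926%) in the transferred control and 3 of 469 (0.640%) in the transferred IRF4 library. The 23 control cells were 3.68% of the gated CD8 T cells but held 34.8% of the Prf1, 36.6% of the Serpinb9, 41.0% of the Serpinb6b and 86.5% of the Gzmf UMIs, and 10.8% of all UMIs.

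In these 23 cells Prf1, Serpinb9, Serpinb6b, Gzmc, Gzmd and Gzmf stood higher than in the other CD8 T cells. Prf1 stood at 499.7 CPM (457 to 545) against 113 CPM (106 to 121) in the other CD8 T cells of that library, Serpinb9 at 544 against 114 CPM and Serpinb6b at 852.5 against 148 CPM. Gzmc stood at 3773 against 139.7 CPM, Gzmd at 853 against 11.9 CPM and Gzmf at 2505 against 47.1 CPM. Of these Gzmf UMIs 1534 of 2542 came from 1 cell, without which the level was 1068 CPM. Gzma, in contrast, was at 2.96 against 120 CPM, and Gzmk at 13.8 against 146 CPM. Ctsw was also lower, at 232 against 356 CPM, and Fasl and Nkg7 were close, at 71.0 against 65.0 and 2167 against 1899 CPM. The 18 cells of the endogenous IRF4 arm had the same direction for Prf1, at 377 against 94.2 CPM, and for Serpinb9, at 349 against 106 CPM. They differed in Gzma, which was high at 613 against 139 CPM. There 1 cell held 43.9% of the Prf1 UMIs and 1 cell 73.8% of the Gzma UMIs, and without the largest cell for each gene the levels were 245 and 186 CPM.

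The NK receptor gene Ncr1 was at 0 in the 23 control cells (with 3 UMIs as the limit, up to 2.96 CPM) and at 66.9 CPM in the 18 cells of the IRF4 arm. Cd8a was at 716.5 and 638 CPM, near the 678 and 652 CPM of the other CD8 T cells. The cells were deep: their median was 38539 against 8809.5 UMIs in the control arm and 31558 against 11751 in the IRF4 arm, and 17 of 23 and 12 of 18 were cycling. No doublet caller was run, and the part of doublets in these cells was not tested. Lyz2, a myeloid RNA, was at 58.1 against 73.8 CPM in the 23 control cells and the others, and Tyrobp, an adaptor of NK and myeloid cells, at 167.5 against 165 CPM. In the IRF4 arm Lyz2 was at 28.7 against 45.5 CPM and Tyrobp at 371 against 66.9 CPM, and in transferred control cells both were higher in the Serpinb9b cells, at 169 against 61.6 and 92.1 against 34.4 CPM. Without all such cells, endogenous IRF4 over control ratios were 0.833 for Prf1, 0.9302 for Serpinb9, 0.886 for Serpinb6b and 0.692 for Cst7, and 0 of 9 measured genes passed the limit. The gene no longer measured was Serpinb9b, which had picked the cells. They were richer in Prf1 and the serpins and made up more of the control arm, so a shift towards 1 followed from the choice. The share of all genes past the limit was not computed without them.

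**Figure D4:**
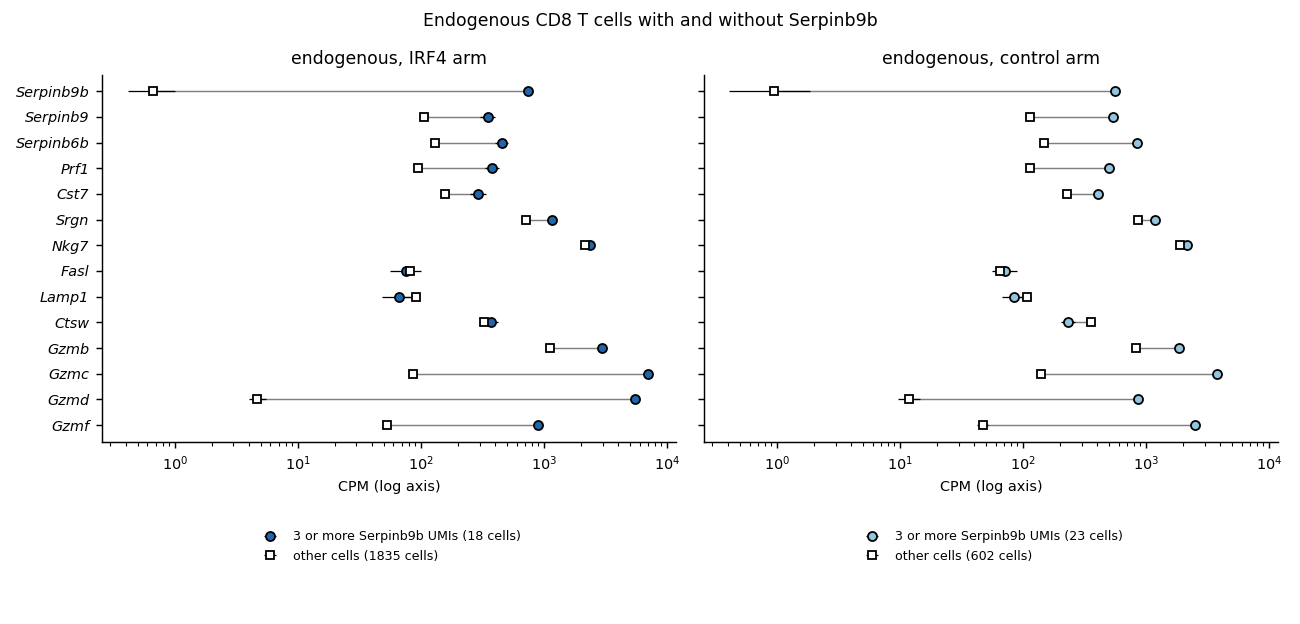
Level in CPM (log axis, whiskers are 95% Poisson intervals) in endogenous CD8 T cells with at least 3 Serpinb9b UMIs (circles) and in the others (squares), by arm. Serpinb9b defined the cells. In the control arm Gzmc lies at 3773 against 139.7 CPM and Gzmd at 853 against 11.9 CPM, while Fasl and Nkg7 lie close together, at 71.0 against 65.0 and 2167 against 1899 CPM.

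NK cells with at least 3 Serpinb9b UMIs were 54 of 885 (6.10%) and 23 of 503 (4.57%), at depths near those of other NK cells (5604 against 5000 and 5648 against 4981 UMIs). They too had more perforin, with Prf1 at 351 against 209 CPM and at 444 against 242 CPM, and more Gzmb, at 1821 against 909.6 CPM and at 1947 against 924 CPM. Unlike the CD8 cells they had 0 Gzmf UMIs in both arms. Serpinb9 differed less than in CD8 T cells, at 553 against 467 and 608 against 409 CPM.

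Transferred cells were poorer in perforin, Fas ligand and Serpinb9b than the endogenous CD8 T cells of the same arm. In the control arm Prf1 was 0.178 times (0.166 to 0.191) the endogenous level, Fasl 0.361 times (0.328 to 0.398) and Serpinb9b 0.0912 times. Srgn and Serpinb9 were also lower past the limit, at 0.639 and 0.581, which makes 5 of 10 lower and 0 higher, where 14.8% and 7.15% of all genes were. At a ratio limit of 5 to 4, 8 of 10 were lower, where 28.9% of all genes were. In the IRF4 arm 4 of 10 were lower and 0 higher, where 11.0% and 6.05% of all genes were: Prf1 at 0.343 (0.310 to 0.380), Fasl at 0.468 (0.424 to 0.516), Nkg7 at 0.619 and Serpinb9b at 0.141. Lamp1 was close to the endogenous level in both arms, at 1.09 and 1.10. Each pair differs in cell origin, transgenic receptor, transduction and depth at once, and these cannot be told apart. In cells without cycle UMIs Prf1 was 1.02 times the endogenous level in the IRF4 arm and 0.850 times in the control arm. In the control arm Serpinb9 and Serpinb6b then stood at 2.17 and 2.11 times the endogenous level, so that 2 genes were higher and 1 lower past the limit, and in the IRF4 arm Cst7 alone passed it, higher at 1.58. In the control arm 3 were lower with the mean over cells, and 3 without cells of 3 or more Serpinb9b UMIs. The shares of all genes past the limit were not computed in these alternative cells and means, so their counts have no background.

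CD8 T cells were next split by state: cycling cells had UMIs of at least 2 of 5 cycle genes, and the others were Havcr2-positive, Tcf7-positive without Havcr2, or neither. Havcr2 encodes the inhibitory receptor TIM-3 and Tcf7 the stem and memory factor TCF1. Perforin was lowest in Tcf7-positive cells of all 4 libraries, at 22.7, 21.0, 30.4 and 18.1 CPM in the order used above, and higher in Havcr2-positive cells, at 91.97, 104, 129.7 and 221 CPM. Cycling cells separated by origin, with 29.0 and 24.8 CPM of Prf1 among transferred cells and 111 and 215 CPM among endogenous ones. In both transferred libraries the Tcf7-positive and cycling intervals overlapped. They were 15.6 to 31.9 and 25.7 to 32.7 CPM with IRF4, and 18.5 to 23.7 and 23.3 to 26.4 CPM in the control. The cycling share was 45.8%, 41.6%, 45.4% and 26.7%, and cycling cells were deepest, with medians of 24020 to 41030 UMIs against 6414 to 8516 in cells that were neither. A call from 2 cycle genes is easier in a deep cell, and the part of depth was not tested.

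**Figure D5:**
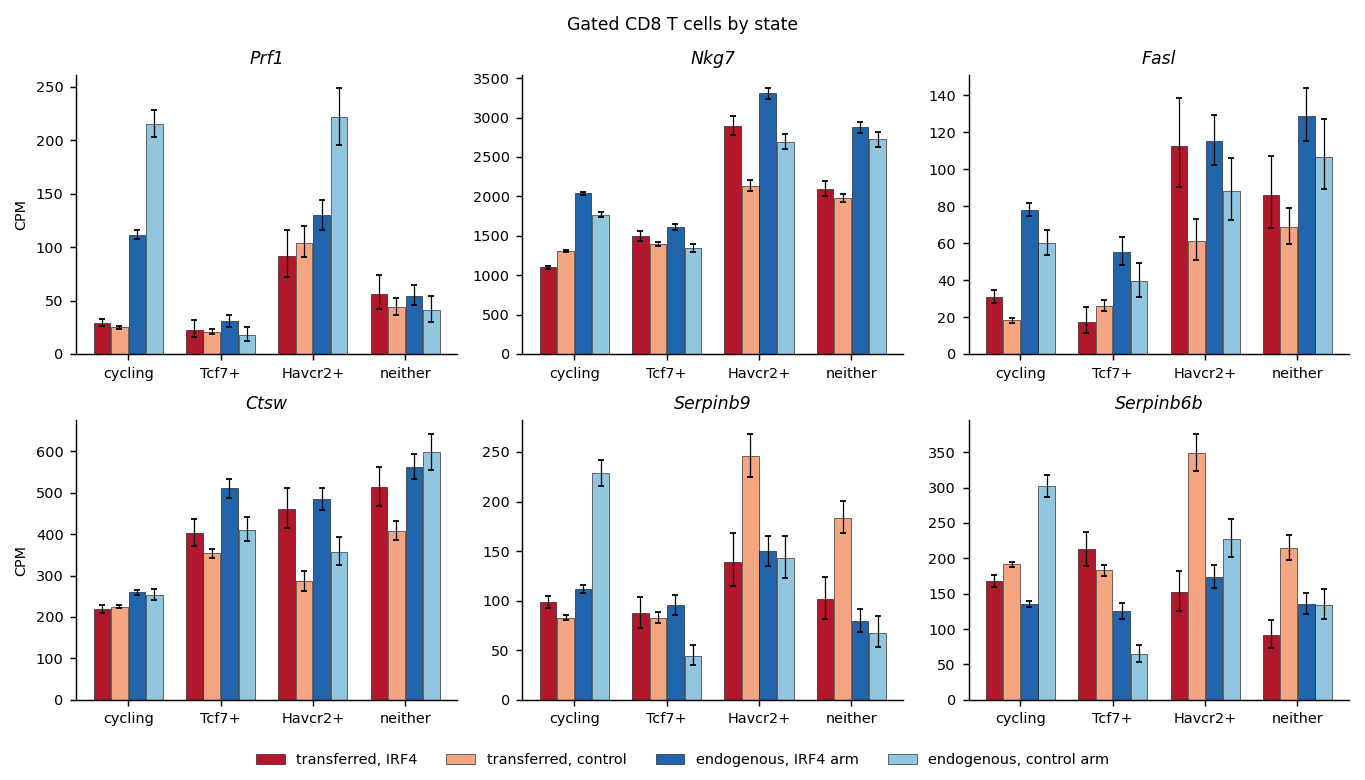
Level in CPM of 6 genes by CD8 T cell state (bars by library, whiskers are 95% Poisson intervals, axes start at 0; Tcf7+ cells have no Havcr2 UMI). Prf1 in Tcf7+ cells is between 18.1 and 30.4 CPM in all 4 libraries, and in cycling cells between 24.8 and 215 CPM.

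For Prf1, Serpinb9 and Serpinb6b the direction of the arm ratio in endogenous cells differed between cycling and Tcf7-positive cells. Among cycling cells Prf1 was lower in the IRF4 arm, with a ratio of 0.517 (0.482 to 0.555), as were Serpinb9 at 0.488 (0.456 to 0.523) and Serpinb6b at 0.448 (0.421 to 0.476). Of the 167 cycling control cells 17 had 3 or more Serpinb9b UMIs, as had 12 of the 841 in the IRF4 arm, and without these cells the ratios were 0.621 for Prf1, 0.668 for Serpinb9 and 0.705 for Serpinb6b. Among Tcf7-positive cells all 3 were higher: Prf1 at 1.68 (1.14 to 2.54), Serpinb9 at 2.15 (1.69 to 2.77) and Serpinb6b at 1.93 (1.58 to 2.38). The Prf1 value there rests on 116 and 34 UMIs. In endogenous Havcr2-positive cells and those that were neither, Prf1 stood at 0.586 and 1.33 (0.951 to 1.88). Serpinb9 stood at 1.05 and 1.17 there, and Serpinb6b at 0.765 and 1.01. Nkg7 and Fasl had ratios above 1 in every endogenous state, with the Fasl interval in cells that were neither spanning 1 (0.979 to 1.49). Transferred Havcr2-positive cells had less of both serpins with IRF4, at 0.566 (0.456 to 0.698) for Serpinb9 and 0.435 (0.355 to 0.529) for Serpinb6b, and more Cst7 at 1.69 (1.45 to 1.97) and Ctsw at 1.61 (1.41 to 1.84). Transferred cells that were neither were alike, with Serpinb9 at 0.553 (0.439 to 0.690), Serpinb6b at 0.427 (0.336 to 0.536), Cst7 at 1.43 and Ctsw at 1.26. In transferred cycling and Tcf7-positive cells Serpinb9 stood at 1.19 and 1.05, and Serpinb6b at 0.877 and 1.16. There Cst7 stood at 0.900 and 1.21, and Ctsw at 0.973 and 1.14. Fasl in transferred cells was 1.70 times (1.48 to 1.94) as high in cycling cells with IRF4, 1.83 times (1.38 to 2.43) in Havcr2-positive cells and 0.656 times (0.418 to 0.986) in Tcf7-positive cells, the last from 25 UMIs in the IRF4 library.

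Perforin and the serpins stood higher in CD8 T cells with granzyme B RNA within every library. CD8 T cells with a Gzmb UMI after thinning had 2.75, 3.61, 2.52 and 5.35 times the Prf1 level of those without, and 2.24, 2.49, 1.56 and 3.77 times the Serpinb9 level. For Serpinb6b the ratios were 1.502, 1.64, 1.51 and 3.77. Lamp1 and Ctsw did not follow, with ratios of 0.744 to 1.05 and 0.730 to 0.899. Fasl was at 1.85, 1.45, 1.43 and 1.42, above Serpinb6b in the transferred IRF4 library and below it in the others.

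Over 21 points of cell type by library, which share 4 libraries and their depth, the closest of 5374 genes to Prf1 was Gzmb (Pearson r = 0.941), followed by Dapk2 and Gzmc. Those closest to Nkg7 were Il2rb (0.984), Sh2d2a and Sh2d1a, to Fasl Cd96 (0.943), Ms4a4b and Sh2d1a, to Ctsw Klrc2 (0.943), Sytl3 and Prkcq, and to Cst7 Sytl3 (0.920), Rasa1 and Gzmb. Serpinb9b was most like Eomes (0.881), Klre1 and Gzmc. Eomes and Klre1 are among the 6 markers of the NK gate, so their levels in NK cells are partly set by the gate. Serpinb9 was most like Cblb (0.917), Il12rb2 and Arfrp1, and Serpinb6b like Cblb (0.914), H2-Q6 and Dnm1l. The pair of serpins itself had r = 0.964. Srgn was most like N4bp1 (0.882), Csrnp1 and Ets2, and Lamp1 like Trem2 (0.931), Bri3 and Nrp2.

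The other genes of the pathway gave the setting of these values. Of 9 granzymes, 4 were measured in transferred cells and 2 were higher past the limit with IRF4, Gzmb and Gzmk (21.8 against 7.33 CPM, ratio 2.98), while Gzma (0.777) and Gzmc (0.769) were within it. Gzmd, Gzme, Gzmf, Gzmg and Gzmm were under 10 CPM in both. In endogenous CD8 T cells 1 of 8 measured was higher, Gzmk at 411 against 132 CPM, and 3 were lower, Gzmc at 217 against 531, Gzme at 31.1 against 71.4 and Gzmf at 69.1 against 312 CPM. Gzma (1.37), Gzmb (1.24), Gzmd (1.05) and Gzmg (0.678) were within the limit and Gzmm was not measured. In transferred IRF4 cells 1 cell held 68.4% of the Gzmc UMIs. In endogenous cells 1 cell held 93.7% of the Gzmd, 60.6% of the Gzme and 99.5% of the Gzmg UMIs of the IRF4 arm, and of the control arm 1 cell held 52.2% of the Gzmf and another 81.5% of the Gzmg UMIs. Without the cell of each library with most Gzmd to Gzmg UMIs, the ratios were 0.305 for Gzmc, 0.102 for Gzmd, 0.215 for Gzme and 0.456 for Gzmf, and Gzmg was left with 3 and 225 UMIs. In NK cells Gzmd, Gzme, Gzmf and Gzmg were lower past the limit in the IRF4 arm, with Gzmf at 9.96 against 813.5 CPM, but 1 control cell held 98.9%, 99.7%, 99.9% and 100% of the control UMIs of these genes. Gzma, Gzmb, Gzmc, Gzmk and Gzmm had ratios of 0.947, 1.01, 0.846, 0.881 and 1.17 there, and the last was not measured at 10 CPM. The same control cell held 84.0% of the Gzmc and 34.9% of the Gzmb UMIs. Without the cell of each library with most Gzmd to Gzmg UMIs, Gzmc stood at 606 against 176 CPM, a ratio of 3.44 (3.13 to 3.79), and Gzmb at 982 against 652 CPM, a ratio of 1.51 (1.43 to 1.59), while Gzmd, Gzme, Gzmf and Gzmg were all under 10 CPM. The Gzmc UMIs of the IRF4 arm were also concentrated: 3 cells held most of the 4857, with 1663 in the cell left out.

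The counts of each list stand beside the shares of all genes given above: 3.94% higher and 3.17% lower in transferred CD8 T cells, 3.34% and 6.31% in endogenous CD8 T cells, and 2.36% and 3.02% in NK cells. Of 12 genes for granule transport and release, 11 were measured and 0 passed the limit in transferred CD8 T, endogenous CD8 T or NK cells. In transferred cells the extremes were Vamp8 (1.46) and Ap3b1 (0.821), in endogenous CD8 T cells Rab27a (1.23) and Lyst (0.715), and in NK cells Vamp7 (1.22) and Lyst (0.791). Of the lysosomal proteases and membrane proteins 3 of 7 measured were lower in transferred and 4 of 8 in endogenous CD8 T cells, with 0 higher, and 1 of 8 was higher in NK cells. Ctsl was lowest in transferred cells, at 6.69 against 33.0 CPM, Cd63 in endogenous CD8 T cells, at 4.02 against 21.2 CPM, and Ctsd had the highest ratio in both (1.32 and 1.01). In NK cells Cd63 (2.20) and Ctsl (0.723) were the extremes. Several of these genes are abundant in macrophages, and the myeloid marker sums given above also stood higher in the control arm. Their part in these values was not tested.

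Among death receptor genes Fas was at 19.9 against 44.1 CPM in transferred cells, ratio 0.452 (0.396 to 0.515), while Tnf was at 0.868. That was 1 of 4 measured lower, beside the higher Fasl. In endogenous CD8 T cells 0 of 3 passed, between Tnf (1.38) and Tnfsf10 (0.687), and in NK cells 2 of 3 were higher, led by Tnf at 18.2 against 8.42 CPM, from 97 and 24 UMIs, with Tnfsf10 (0.909) lowest. Other serpins were seldom measured, 2 of 10 in transferred cells with 0 past the limit (Serpina3g 1.13, Serpinb6a 0.964). Of 3 in endogenous CD8 T cells 1 was lower (Serpina3f 0.578, Serpinb6a 0.960 highest), and of 3 in NK cells 1 was higher (Serpina3f 1.85, Serpinb6a 0.928 lowest). Of 9 regulators, 2 were higher and 1 lower in transferred cells, with Prdm1 at 17.6 against 2.97 CPM and Eomes at 3.94 against 11.0 CPM. In endogenous CD8 T cells 1 was higher and 2 lower, with Eomes at 110.5 against 45.5 CPM and Zeb2 at 27.0 against 75.4 CPM. In NK cells 0 of 9 passed, between Stat5a (1.29) and Zeb2 (0.694).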

How the data were processed

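Droplet 3′ RNA libraries of 4 groups, 1 library each, were analysed. The authors deposited raw UMI counts, as whole numbers for every gene in every barcode. The submitters' processing notes name Cell Ranger 3.0.2, STAR 2.6 and mm10, and no source used here gives the gene annotation. Per the labels' protocols the kit was 10x Genomics 3′ version 3. The same text speaks of a nucleus suspension although cells were sorted, and this was not settled. The genes and lists were chosen with earlier results of these data known.

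A barcode was kept as a cell if its UMIs numbered 1000 or more, its genes 500 or more, and its mitochondrial share was 10% or less. Of kept cells, 14.3% to 28.3% per library passed no gate or several. Gate limits were set after the data were seen. CD8 T cells had UMIs of at least 2 of 3 Cd3 genes, of Cd8a and of Cd8b1, none of Cd4 or of 3 B cell genes, and at most 1000 CPM of 8 myeloid markers. NK cells had at least 3 of 6 NK markers, Ncr1 or Klrb1c among them, and no Cd3e, Cd3g or CD8 UMI. Other types used the same scheme. No doublet caller was run. An alternative left out the 6% of cells with most UMIs.

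UMIs were summed per type and library with at least 50 cells and scaled to CPM. Levels have exact Poisson, ratios exact conditional binomial and shares exact Clopper-Pearson intervals at 95%. A count of 0 was given the limit of 3 counts. For shares each cell was thinned to 2000 UMIs. No test was made, since each group has 1 library. All 10 genes, all granzymes, the highest and lowest measured gene of each other list per arm comparison, and the 3 genes most like each member are named. Pearson r used log2 CPM after adding 1, among genes reaching 50 CPM. Marker genes and cells with Serpinb9b were named after their values were seen. Clusters, an alternative, used 2000 variable genes, 30 components, 15 neighbours and Leiden resolution 1. The ratio code was checked on simulated counts. Python 3.11.15, numpy 2.4.6, scipy 1.17.1, pandas 2.3.3, scikit-learn 1.9.0, igraph 0.11.9 and matplotlib 3.10.9 were used. Positions come from GENCODE vM21.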

Additional observations from a re-analysis of the deposited data

Results flagged for a closer look

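Some genes had arm ratios (IRF4 over control) on opposite sides of 1 in 2 cell classes, with counting intervals that exclude 1 and a gap of at least 1.5 times. The differences between classes were not tested, since each class has 1 library per arm. Prf1 stood at 1.24 in transferred and 0.643 in endogenous CD8 T cells, and Serpinb9 at 1.07 and 0.689. Between NK and CD8 T cells of the same endogenous libraries, Serpinb9 stood at 1.13 and 0.689, Serpinb6b at 1.10 and 0.613, and Serpinb9b at 1.246 and 0.240. Without cells of 3 or more Serpinb9b UMIs, the endogenous CD8 ratios of Serpinb9 and Serpinb6b were 0.9302 and 0.886, and that of Prf1 was 0.833. Those cells were picked by a gene of the set after its values were seen. Across the alternative settings Serpinb9 ran from 0.889 to 1.08 in transferred, 0.966 to 1.14 in NK and 0.650 to 1.55 in endogenous CD8 T cells. In NK and endogenous CD8 T cells Serpinb6b ran from 1.01 to 1.11 and 0.583 to 1.35, and Serpinb9b from 0.694 to 1.27 and 0.138 to 0.702. Prf1 did not cross 1 in these settings, at 1.12 to 1.39 in transferred and 0.623 to 0.932 in endogenous CD8 T cells. Within single states it did. Prf1 stood at 0.883 (0.666 to 1.16) in transferred Havcr2-positive cells. In endogenous Tcf7-positive cells it stood at 1.68 (1.14 to 2.54), and in endogenous cells that were neither at 1.33 (0.951 to 1.88).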

How the results depend on the processing

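No paired analysis was possible because each group has 1 library. Of 400 ratios of the 10 genes under alternative settings, 208 stayed inside the counting interval, 188 moved beyond it with no change of direction in a ratio past the limit, and 4 ratios past the limit changed direction. Ratios within the limit included, 49 of the 400 lay on the other side of 1 from the value reported. In cells without cycle UMIs, Serpinb6b in endogenous CD8 T cells stood at 1.35, Serpinb9 of transferred over endogenous control cells at 2.17 and Prf1 of transferred over endogenous IRF4 cells at 1.02. Under the stricter gate Serpinb9 of transferred over endogenous control cells stood at 1.08. The counts of genes past the limit also moved. Shares of all genes were computed for the main setting, and for genes lower in transferred over endogenous control cells at 5 to 4. The other counts given next therefore have no background beside them. Transferred cells had 0 higher without cycling cells, and 1 lower with no limit on low values. Endogenous CD8 T cells had 1 lower, not 4, under the stricter gate, with the mean over cells, without the 6% deepest cells and in cells without cycle UMIs, where 1 was higher (Serpinb9). They had 0 lower without cells of 3 or more Serpinb9b UMIs, where Serpinb9b itself was under 10 CPM. That alternative was chosen after seeing the data. Leaving out the cell with most Gzmd to Gzmg UMIs was also chosen then. Transferred over endogenous control cells had 3 lower with the mean over cells, 1 lower and 2 higher in cells without cycle UMIs, 8 lower at a ratio limit of 5 to 4 and 3 lower without the Serpinb9b cells. Transferred over endogenous IRF4 cells had 1 higher and 2 lower with the mean over cells, and 1 higher and 0 lower in cells without cycle UMIs. The cause of these shifts was not tested. NK counts were 0 and 0 under every setting tried.

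With 1 library per group, no value here separates the treatment from the mouse, the sort or the library. The transferred IRF4 library is the smallest, so its Serpinb9b and Tcf7-positive values rest on few UMIs.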
